A study of Mus musculus with 6 samples.

Results

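The genes described here are 35 mouse genes of the unfolded protein response and of the amino acid stress response. They were chosen by name, with earlier results of these data known, out of 19057 genes with a named probe on the array. Of these 35, 23 belong to the endoplasmic reticulum (ER) as sensors, chaperones, folding enzymes and degradation factors, and 12 belong to the programme of the transcription factor Atf4. RNA came from 2 hybridomas, cell lines that arise when a lymphocyte is fused to a tumour cell. The 3 arrays of the producing group carried RNA of the IL-17-producing hybridoma S2, and the 3 arrays of the non-producing group carried RNA of the IL-17-non-producing hybridoma DE3. Both were grown in RPMI medium with fetal calf serum, with no treatment named in the labels. Each group is a single named line, so every difference below is between 2 lines, and the labels do not say whether replicates were separate cultures. The spread behind the p-values is therefore that of these samples alone, and it may be technical.

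Proteins that enter the secretory route fold in the ER, where chaperones, lectins and disulfide isomerases assist them. When unfolded protein accumulates there, the sensors Ern1 (IRE1), Eif2ak3 (PERK) and Atf6 start the unfolded protein response, which raises the folding and degradation capacity of the ER and lowers protein synthesis. PERK phosphorylates eIF2α, and so do kinases that sense amino acid shortage, and translation of Atf4 then rises and switches on genes of amino acid synthesis and uptake. Secreting lymphocytes such as plasma cells are known for a strong response through Xbp1, the transcription factor that IRE1 activates by splicing its mRNA.

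In the Illumina data, 30 of the 35 genes could be tested. A probe was tested if its signal was above background, at a detection p under 0.05, on at least 3 of the 6 arrays. Atf6 (the third sensor), Manf (a secreted ER stress protein), Canx (the membrane lectin calnexin) and Atf3 (a stress-induced transcription factor) had probes but were not detected, and Dnajb11, an ER co-chaperone, had no probe in the annotation used. The 2 probes of Atf6 were above background on 1 array each, and the probes of Manf, Canx and Atf3 on none. Manf, Canx and Atf3 had only 1 probe each, so its lack of signal does not show that the gene was not expressed. Levels are log2 values after background correction and quantile normalization, and differences are producing minus non-producing on that scale. Where a gene had several tested probes, the one of highest mean level stands for it. It is said to have risen or fallen only if it passed a limma test with a Benjamini-Hochberg adjusted p under 0.05 over all 17445 tested probes.

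The arrays of the producing hybridoma were dimmer, with a mean signal of 454, 482 and 399, against 559, 518 and 505 in the non-producing hybridoma, and the groups did not overlap. The 6 arrays shared 1 chip and the groups took neighbouring positions on it, so position and group cannot be told apart. Of 12 T cell markers, 8 were tested (Cd3d, Cd3e, Cd3g, Cd247, Lat, Zap70, Thy1 and Cd28), of which 2 rose and 4 fell. That is 75% called, where 18.1% of all tested genes were called higher and 18.6% lower. On the linear scale the 10 listed genes with a probe, untested Cd2 and Cd5 included, summed to 41264 to 43022 on the producing arrays. The same genes summed to 50131 to 53194 on the non-producing arrays, and Thy1 was the brightest of them. Of 8 plasma cell markers, Prdm1, Jchain, Mzb1, Tnfrsf17 and Derl3 were not detected, while Xbp1, Sdc1 and Pou2af1 were. Of these, Pou2af1, a B lineage coactivator, fell by 0.78 (limma adjusted p = 0.00309), while Xbp1, at 0.18, and Sdc1, at 0.10, did not pass. The plasma cell list, most of whose signal is that of Xbp1, summed to 4909 to 4991 on the producing arrays and 4222 to 4604 on the non-producing arrays. Without Xbp1 it summed to 136 to 169 on the producing arrays and 192 to 244 on the non-producing arrays. Of 8 B cell markers only Ebf1 was tested, at -0.20, and the list summed to 56.3 to 77.5 against 58.7 to 67.3 on the non-producing arrays. None of the 7 myeloid markers with a probe was detected, and their sum was 46.3 to 55.3 against 49.3 to 57.3 on the non-producing arrays. Among fibroblast markers, the collagen, decorin, lumican and Pdgfra probes were not detected. Of the pair that was tested, Fbln1, a matrix protein gene, rose by 1.43 and Thy1, which T cells also express, fell by 0.47. The list's sum, Thy1 included, was 14328 to 16033 against 19590 to 21281 on the non-producing arrays. The part of these markers and of signal in the results below was not tested.

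The test called 10 of the 30 genes higher and 1 lower, and 19 did not pass. Among all 9395 tested genes, 36.7% were called, 18.1% as higher and 18.6% as lower. The members' share of calls in either direction was also 36.7%, so as a whole they were called about as often as all tested genes. The calls leaned one way, with 33.3% of the members higher. The 19 tested ER genes had 4 higher and 1 lower, or 21.1% higher, close to the background share. The 11 tested genes of the Atf4 programme had 6 higher and 0 lower, or 54.5% higher (limma with Benjamini-Hochberg; the list itself was not tested). Arrays of the groups did not overlap for 14 members, 13 of them higher and 1 lower, where 25.5% of all tested genes were separated upward and 25.9% downward. The median difference was 0.13 over the 30 members, 0.03 over the ER genes and 0.38 over the genes of the Atf4 programme, against 0.00 over all tested genes, and the first pair of these medians turned negative with arrays scaled to a common median of all probes.

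**Figure D1:**
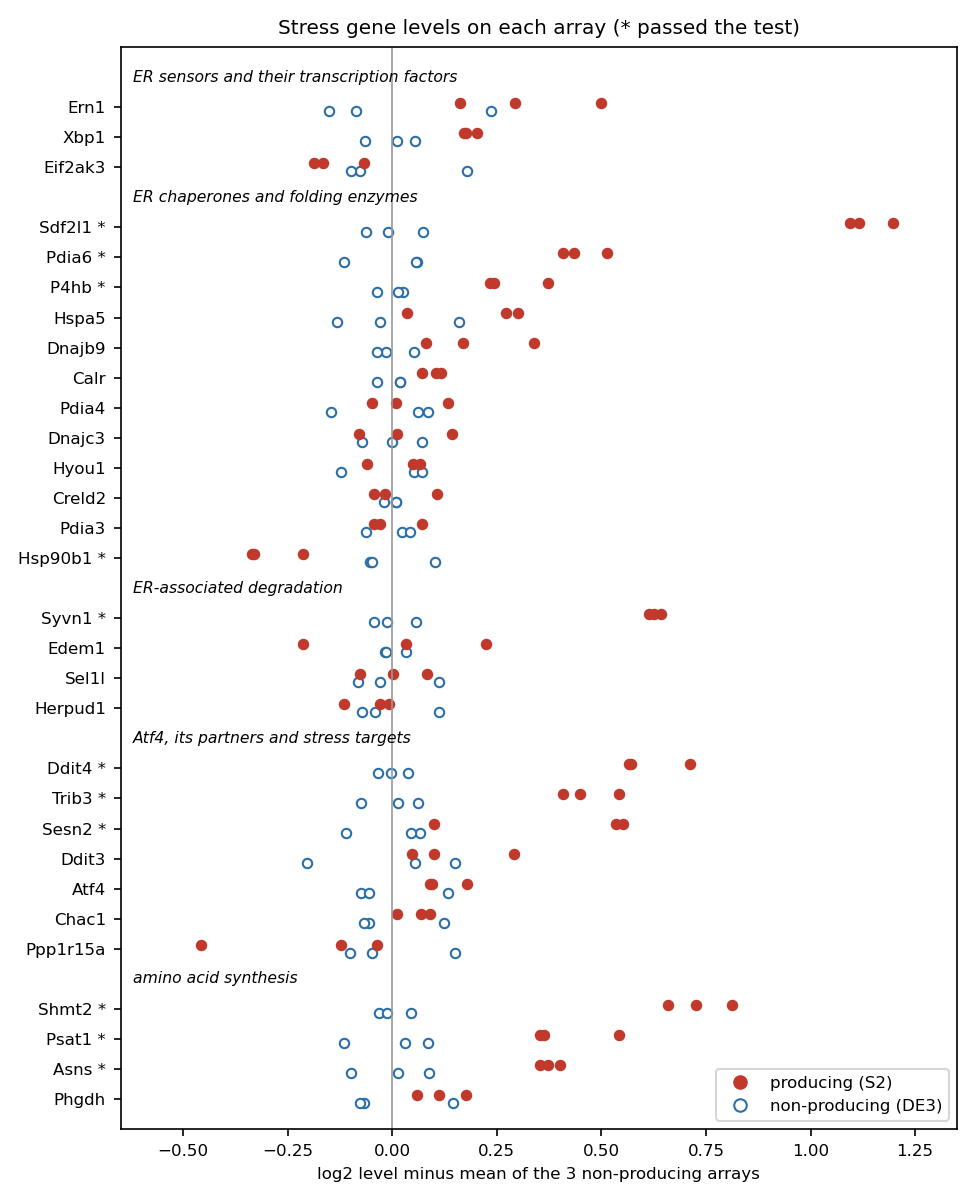
Log2 level of the 30 tested genes on each array, as the deviation from the mean of the 3 non-producing arrays, with producing arrays as filled red points above and non-producing arrays as open blue points below, grouped by role. Asterisks mark the 11 genes that passed the test; Sdf2l1 stands furthest to the right, and Hsp90b1 is the only one that passed to the left of 0.

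Promoters of many of these genes are known for short elements that the stress factors bind. They are shown because the genes that carry them did not all move alike. RefSeq promoters (build GRCm38.p6, 250 bases before to 50 bases after the start site) were matched by symbol for 32 of the 35 genes, all except Atf6, Hyou1 and Manf. The ER stress response element consists of CCAAT, any 9 bases and CCACG, and Atf6 and Xbp1 are known to act through it. Searched on both strands, it occurred in 8 of these 32 genes (25.0%) and in 39 of 32851 promoters of the table (0.119%). The element was first described on genes of this kind, so that share is a description. The matches are given below on the strand that carries the element, with the fixed letters in capitals.
Hspa5, chr2:34772025-34772043, strand of the gene: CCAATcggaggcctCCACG
Calr, chr8:84847075-84847093, opposite strand: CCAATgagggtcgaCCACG
Hsp90b1, chr10:86705638-86705656, strand of the gene: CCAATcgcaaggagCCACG
Hsp90b1, chr10:86705533-86705551, opposite strand: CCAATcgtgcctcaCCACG
Canx, chr11:50325800-50325818, strand of the gene: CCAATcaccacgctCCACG
Pdia6, chr12:17266491-17266509, strand of the gene: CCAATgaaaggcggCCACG
Dnajc3, chr14:118937827-118937845, strand of the gene: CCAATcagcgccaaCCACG
Creld2, chr15:88819520-88819538, opposite strand: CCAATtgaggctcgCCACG
Syvn1, chr19:6046532-6046550, strand of the gene: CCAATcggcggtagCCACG
Of the 8 genes, Syvn1 and Pdia6 rose, Hsp90b1 fell, Hspa5, Calr, Creld2 and Dnajc3 did not pass, and Canx was not detected. Among other genes whose promoter held the element, 5 were tested, of which 1 rose and 2 fell. The shares over all tested genes were 18.1% higher and 18.6% lower.

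The related element II, which is ATTGG, any 1 base and CCACG, was found in Herpud1 and Dnajb11 and in 0.0365% of all promoters; Herpud1 did not pass and Dnajb11 had no probe. The core TGACGTGG was found in 0 of the 32 genes and in 0.676% of all promoters. The core TGATGNAA, part of the element through which Atf4 and C/EBP factors act, was found in 5 of the 32 genes (15.6%) and in 3.97% of all promoters. The genes were chosen by name as stress genes, so this share, like those of the other elements, is a description. The sites of TGATGNAA are shown with their letters in capitals.
Atf3, chr1:191183436-191183443, opposite strand: TGATGcAA
Chac1, chr2:119351049-119351056, opposite strand: TGATGcAA
Trib3, chr2:152344039-152344046, opposite strand: TGATGtAA
Asns, chr6:7693225-7693232, strand of the gene: TGATGaAA
Herpud1, chr8:94386317-94386324, opposite strand: TGATGcAA
Of these 5, Trib3 and Asns rose, Chac1 and Herpud1 did not pass and Atf3 was not detected. Among the other tested genes with this core, 32 of 209 rose and 45 fell, with a median difference of -0.0026. Of all tested genes, 18.1% were called higher and 18.6% lower. A match shows only that the letters are there.

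Whole promoters are shown for the ER gene with the highest rise, Sdf2l1, for Syvn1, which rose and has the element, for Hspa5, which has it and did not pass, and for Hsp90b1, which has 2 copies and fell. Capitals mark the fixed letters of the ER stress response element, which read as the reverse complement where it lies on the opposite strand. Sdf2l1 has no complete copy in this window, and capitals there mark 4 CCAAT and 3 CCACG words on either strand, which are also the 2 ends of the complete element. CCAAT occurs in 37.4% of all promoters and in 81.2% of the 32 genes, and CCACG in 32.8% and 78.1%. These shares too are a description, as the genes were chosen by name. Outside complete elements such words are left unmarked in the other promoters. CCAAT and CCACG words, complete elements included, number 6 and 2 in Hsp90b1, 4 and 1 in Hspa5, and 2 and 1 in Syvn1.
Sdf2l1, chr16:17132334-17132633, minus strand: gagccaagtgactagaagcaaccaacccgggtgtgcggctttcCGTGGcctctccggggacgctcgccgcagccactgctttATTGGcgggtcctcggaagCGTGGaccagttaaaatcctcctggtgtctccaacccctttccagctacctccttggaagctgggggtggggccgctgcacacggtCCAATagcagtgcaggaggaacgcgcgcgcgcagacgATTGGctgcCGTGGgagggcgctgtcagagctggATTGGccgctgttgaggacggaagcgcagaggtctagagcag
Syvn1, chr19:6046326-6046625, plus strand: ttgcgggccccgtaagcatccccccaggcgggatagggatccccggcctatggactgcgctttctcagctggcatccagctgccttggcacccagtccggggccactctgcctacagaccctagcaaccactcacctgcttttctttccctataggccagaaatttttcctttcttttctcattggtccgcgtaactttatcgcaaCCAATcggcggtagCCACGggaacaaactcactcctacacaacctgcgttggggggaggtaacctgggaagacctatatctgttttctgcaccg
Hspa5, chr2:34771840-34772139, plus strand: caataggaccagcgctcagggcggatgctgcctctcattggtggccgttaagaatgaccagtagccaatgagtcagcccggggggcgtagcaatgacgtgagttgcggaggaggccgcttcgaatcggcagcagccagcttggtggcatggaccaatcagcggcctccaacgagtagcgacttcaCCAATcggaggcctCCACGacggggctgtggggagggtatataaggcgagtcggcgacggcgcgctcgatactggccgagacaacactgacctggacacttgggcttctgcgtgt
Hsp90b1, chr10:86705395-86705694, minus strand: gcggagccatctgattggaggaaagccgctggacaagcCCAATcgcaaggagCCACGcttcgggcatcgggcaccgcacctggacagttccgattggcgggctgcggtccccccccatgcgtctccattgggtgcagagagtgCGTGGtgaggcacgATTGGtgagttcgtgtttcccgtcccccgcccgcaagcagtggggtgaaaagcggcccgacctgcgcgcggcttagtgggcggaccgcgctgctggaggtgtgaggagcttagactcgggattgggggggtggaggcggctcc
The promoters of Trib3 and Asns follow, with the fixed letters of TGATGNAA in capitals, reverse complemented in Trib3. It lies after the start site in Trib3 and shortly before it in Asns.
Trib3, chr2:152344011-152344310, minus strand: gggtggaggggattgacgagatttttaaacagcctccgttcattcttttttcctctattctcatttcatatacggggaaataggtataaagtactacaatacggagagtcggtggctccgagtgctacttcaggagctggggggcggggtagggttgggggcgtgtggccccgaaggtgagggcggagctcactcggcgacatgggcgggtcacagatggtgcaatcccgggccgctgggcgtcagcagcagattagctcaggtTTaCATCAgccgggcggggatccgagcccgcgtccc
Asns, chr6:7693160-7693459, minus strand: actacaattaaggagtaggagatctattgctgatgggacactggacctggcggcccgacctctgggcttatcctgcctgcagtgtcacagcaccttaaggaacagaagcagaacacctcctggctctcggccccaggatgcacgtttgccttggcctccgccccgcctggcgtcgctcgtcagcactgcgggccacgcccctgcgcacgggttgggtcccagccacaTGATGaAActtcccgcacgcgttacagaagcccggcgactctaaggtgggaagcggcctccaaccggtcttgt

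None of the sensors and their transcription factors passed the test. Ern1, the kinase and endoribonuclease that splices Xbp1, had 6.61, 6.81 and 6.48 on the producing arrays and 6.55, 6.23 and 6.16 on the non-producing arrays. The groups overlapped, as non-producing array 1 lay above producing array 3, and the difference was 0.32 with a limma adjusted p of 0.0921. Without non-producing array 1 it was 0.44 and passed (limma adjusted p = 0.0299). Xbp1 had 12.22, 12.25 and 12.22 on the producing arrays against 11.98, 12.10 and 12.06 on the non-producing arrays. The groups did not overlap, but the difference of 0.18 did not pass (limma adjusted p = 0.0906). It passed without background correction, with a normexp offset of 50 and with the authors' processed values (limma adjusted p 0.0483, 0.0419 and 0.0481). Splicing of Xbp1 mRNA was not analysed here. Eif2ak3, the kinase PERK, was at -0.14, with a 95% confidence interval of -0.36 to 0.08.

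Among the 12 tested chaperones and folding enzymes, Sdf2l1, Pdia6 and P4hb rose, Hsp90b1 fell and 8 did not pass. That is 25% higher, where 18.1% of all tested genes were called higher and 18.6% lower. Sdf2l1, a soluble component of ER chaperone complexes, had 12.00, 11.90 and 11.92 on the producing arrays and 10.80, 10.74 and 10.88 on the non-producing arrays. Every producing array lay more than 1 unit above every non-producing one, a difference of 1.13 with a standard error of 0.08, or 2.20-fold (limma adjusted p = 2.81e-05). It had the largest difference of the 30 genes and passed under all 16 alternatives run, from 0.87 to 1.17.

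Pdia6, a protein disulfide isomerase, had 7.46, 7.43 and 7.54 on the producing arrays and 6.91, 7.08 and 7.08 on the non-producing arrays. The groups were apart by more than their own spread, and the difference was 0.45 (limma adjusted p = 0.00426). Its other probe, at 0.10, was separated too but did not pass (limma adjusted p = 0.307). P4hb, the isomerase PDI itself, had 12.63, 12.50 and 12.49 in the producing hybridoma and 12.28, 12.22 and 12.27 in the non-producing hybridoma. The groups did not overlap, with a difference of 0.28 (limma adjusted p = 0.0235). That call was lost without producing array 1 (0.24, limma adjusted p = 0.0871), non-producing array 2 (0.26, 0.0753) or non-producing array 3 (0.29, 0.0621).

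Hsp90b1, the ER paralogue of Hsp90 known as GRP94, was the exception in direction. It had 13.09, 13.21 and 13.09 on the producing arrays and 13.53, 13.37 and 13.38 on the non-producing arrays. All producing arrays were lower, and the difference was -0.29 (limma adjusted p = 0.027). The call was lost without any single array other than producing array 2 (-0.32 to -0.24, limma adjusted p 0.0506 to 0.0833). It was also lost with arrays scaled to a common median of detected probes (-0.24, limma adjusted p = 0.0609).

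Hspa5, the central ER chaperone BiP and a common marker of the response, had 5.86, 5.62 and 5.89 on the producing arrays and 5.75, 5.46 and 5.56 on the non-producing arrays. The groups overlapped, and the difference was 0.20 with a 95% confidence interval of -0.05 to 0.45. This probe was dim, with a raw signal of 92.3 to 98.8 on the producing arrays and 92.2 to 107.3 on the non-producing arrays, where the members' probes detected on no array read 47.7 to 74.8. The absence of a call for Hspa5 therefore rests on a signal not far above background. Dnajb9, a co-chaperone of BiP induced by Xbp1, had 8.06, 8.23 and 7.97 against 7.88, 7.94 and 7.86 in the non-producing hybridoma. The arrays did not overlap but the difference of 0.20 did not pass (limma adjusted p = 0.128), and its second probe was at 0.08. Calr, the soluble lectin calreticulin, was separated in the same way at 0.10, with 9.73, 9.68 and 9.71 against 9.57, 9.63 and 9.63 in the non-producing hybridoma (limma adjusted p = 0.334).

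The other 5 chaperones and folding enzymes lay close to 0. They were Pdia4, an isomerase, at 0.03, Dnajc3, a co-chaperone that also restrains PERK, at 0.02, the nucleotide exchange factor Hyou1, at 0.02, the secreted ER protein Creld2, at 0.01, and Pdia3, the isomerase that works with the lectins. For Pdia3 the 95% confidence interval ran from -0.18 to 0.18, and for Creld2, whose second probe was at 0.05, from -0.16 to 0.19. All 5 had overlapping groups.

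ER-associated degradation, which returns misfolded proteins to the cytosol for the proteasome, had 1 of its 4 genes called. Among all tested genes 36.7% were called. Syvn1, the ubiquitin ligase Hrd1, had 11.68, 11.67 and 11.70 on the producing arrays and 11.11, 11.01 and 11.04 on the non-producing arrays. The groups were far apart for their spread, with a difference of 0.63, a standard error of 0.07 and a fold of 1.54 (limma adjusted p = 0.000442). Sel1l, the membrane partner of Hrd1, read 8.69, 8.85 and 8.77 against 8.68, 8.88 and 8.74 in the non-producing hybridoma, with a 95% confidence interval of -0.20 to 0.20 around a difference of 0.00. The range of the non-producing arrays enclosed that of the producing arrays. The remaining Sel1l probes that were tested, at 0.19 and -0.08, did not pass either. Edem1, a lectin that hands misfolded glycoproteins to Hrd1, was at 0.01 (95% confidence interval -0.25 to 0.27). Herpud1, an ER membrane protein that recruits Hrd1 and is induced by ER stress, was at -0.05 on its brighter probe and at -0.20 on the other, where the producing arrays were all lower (limma adjusted p = 0.682 and 0.0808).

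Atf4 mRNA did not pass, and neither did several of the genes known as its direct stress targets. Atf4 had 12.83, 12.91 and 12.83 on the producing arrays and 12.87, 12.66 and 12.68 on the non-producing arrays. The groups overlapped at a difference of 0.12, and the second probe was at -0.09 (limma adjusted p = 0.317 and 0.503). Atf4 is known to be controlled mainly at translation, which an array does not read. Ddit3, the transcription factor CHOP, had 8.94, 8.99 and 9.18 against 8.68, 8.94 and 9.04 on the non-producing arrays. The groups overlapped, and its 2 probes were at 0.15 and 0.09 (limma adjusted p = 0.363 and 0.723). Chac1, a glutathione-degrading enzyme, was at 0.06 (95% confidence interval -0.13 to 0.25). Ppp1r15a, the phosphatase subunit GADD34 that reverses eIF2α phosphorylation, was at -0.21 (-0.49 to 0.08).

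Ddit4, Trib3 and Sesn2 rose. Ddit4 and Sesn2 both restrain mTORC1, and Trib3 is a pseudokinase that dampens Atf4 and CHOP. Ddit4 had 11.29, 11.28 and 11.43 on the producing arrays and 10.68, 10.71 and 10.75 on the non-producing arrays. All producing arrays were higher, by 0.62 on average with a standard error of 0.08 (1.53-fold, limma adjusted p = 0.000706). Trib3 had 9.73, 9.64 and 9.60 in the producing hybridoma and 9.25, 9.20 and 9.12 in the non-producing hybridoma. The groups were apart on all 3 of its probes, at 0.47, 0.31 and 0.42, of which only the brightest passed (limma adjusted p = 0.00299, 0.0693 and 0.0599). Sesn2 had 7.21, 7.66 and 7.64 against 7.18, 7.16 and 6.998 on the non-producing arrays. Producing array 1 lay just above the non-producing arrays while the others stood clear of them. The difference of 0.39 passed narrowly (limma adjusted p = 0.0473) and its other tested probe, at 0.17, did not. The call for Sesn2 was lost without any single array other than producing array 1 (0.32 to 0.43, limma adjusted p 0.0768 to 0.138). It was also lost with no filter (limma adjusted p = 0.119) and with the mean of its probes (0.28, 0.145).

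Of the 4 genes of amino acid synthesis, 3 rose and Phgdh did not pass, where 18.1% of all tested genes were called higher. Shmt2, the mitochondrial enzyme that turns serine into glycine and a one-carbon unit, had 10.97, 10.91 and 11.06 on the producing arrays and 10.22, 10.29 and 10.23 on the non-producing arrays. The groups were widely apart, and the difference was 0.73 with a standard error of 0.08, or 1.66-fold (limma adjusted p = 0.000276). Its second probe rose by 0.45 (limma adjusted p = 0.00351). Psat1, the aminotransferase of serine synthesis, had 12.99, 12.81 and 12.80 against 12.33, 12.53 and 12.47 in the non-producing hybridoma. The lowest producing array stayed above the highest non-producing one, with a difference of 0.42 (limma adjusted p = 0.00933). Psat1 lies on chromosome 19, and its call was lost with chromosome medians removed or with arrays scaled to a common median of all probes.

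Asns, asparagine synthetase, had 13.20, 13.15 and 13.17 in the producing hybridoma and 12.81, 12.89 and 12.70 in the non-producing hybridoma. All 3 of its probes separated the groups, at 0.38, 0.13 and 0.30, and the brightest and the dimmest of them passed (limma adjusted p = 0.00815 and 0.0251) while the middle one did not (0.235). Phgdh, the first enzyme of serine synthesis, had 12.10, 11.98 and 12.03 against 11.86, 11.84 and 12.07 on the non-producing arrays. Non-producing array 3 lay among the producing arrays, and the difference was 0.12 (95% confidence interval -0.09 to 0.32). Whether Psat1 and Phgdh differ from each other in their change was not tested.

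**Figure D2:**
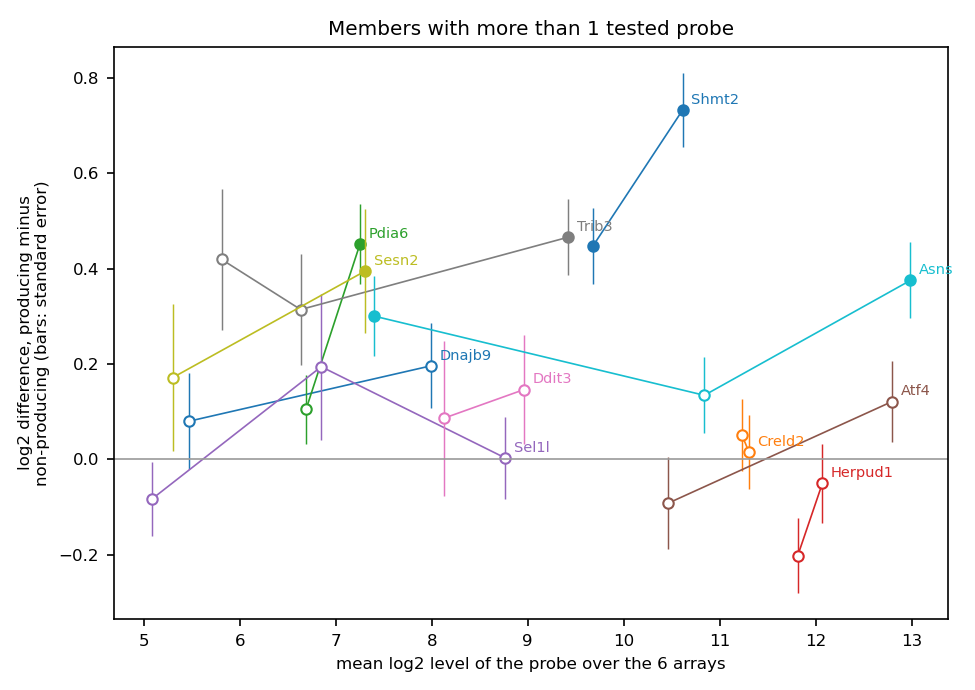
Log2 difference, producing minus non-producing, of every tested probe of the members with more than 1, against the mean log2 level of the probe; lines join probes of a gene, bars are standard errors, and filled points passed the test. Shmt2 passed on both probes, Asns on 2 of 3, and Trib3, Pdia6 and Sesn2 on the brightest alone.

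Chromosome position moved with some of these calls. The median difference of all tested genes was 0.27, 0.24, 0.30 and 0.31 on chromosomes 4, 16, 17 and 19 of GRCm38.p6, and between -0.19 and 0.01 on the other chromosomes. The 4 tested members on these chromosomes, Sesn2 (4), Sdf2l1 (16), Syvn1 and Psat1 (19), all rose, where 48.3% of all tested genes on them were called higher and 5.21% lower. Of the 26 members elsewhere, 6 rose and 1 fell, where 11.4% of all tested genes were called higher and 21.5% lower. With each chromosome's median removed, Sdf2l1 was at 0.89 and Syvn1 at 0.32, both still past the test (limma adjusted p = 0.000112 and 0.0134). Psat1, at 0.11, and Sesn2, at 0.12, no longer passed (limma adjusted p = 0.407 and 0.524). Phgdh, on chromosome 3 with a median of -0.19, was then at 0.30 and passed (limma adjusted p = 0.0351). In that fit 30.7% of all tested genes were called, 14.1% as higher and 16.7% as lower. The Atf4 programme then had 5 of 11 genes higher and a median of 0.21, against 6 and 0.38 without it, and the ER genes had 4 of 19 higher, 1 lower and a median of 0.11, against 0.03.

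Outside the 35 genes, 142 others of the same pathways were listed by role, of which 111 were tested, with 38 higher, 16 lower and a median of 0.11. These counts and those of each list below stand against 18.1% higher and 18.6% lower among all tested genes, and the translocon list, at 16.7% higher, was near that share. The lists were chosen with earlier results of these data known, so these shares are a description and no test. Of 21 tested genes of the integrated stress response, 10 rose and 2 fell (median 0.13). Jdp2, a repressor of the AP-1 family, had 8.95, 9.04 and 8.81 on the producing arrays and 7.36, 7.11 and 7.20 on the non-producing arrays. It was 3.27-fold higher (difference 1.71, limma adjusted p = 1.08e-05), a wider gap than that of any of the 30 tested members. Stc2, a secreted glycoprotein induced by ER stress, had 8.04, 7.75 and 8.14 against 6.35, 6.32 and 6.38 in the non-producing hybridoma. The groups were again far apart, at 3.09-fold (limma adjusted p = 2.33e-05). Atf5, a transcription factor of the Atf4 family that stress favours at translation, rose by 0.91, with 11.003, 11.117 and 11.007 on the producing arrays against 10.179, 10.057 and 10.167 on the non-producing arrays (limma adjusted p = 9.89e-05).

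Other genes of serine, glycine, one-carbon and proline synthesis had 3 higher and 0 lower of 7 tested (median 0.25). Aldh1l2, a mitochondrial folate enzyme, rose by 0.87 (limma adjusted p = 0.000266). Aldh18a1, which makes the precursor of proline, rose by 0.45 and lies on chromosome 19. Its call was lost without non-producing array 1 (0.40, limma adjusted p = 0.055), with chromosome medians removed (0.14, 0.393) or with arrays scaled to a common median of all probes (0.16, 0.311). Mthfd2, the mitochondrial partner of Shmt2 in the folate cycle, was at 0.28 with a limma adjusted p of 0.0192, and its other probe was at 0.03. That call was lost without producing array 1 or 2 or non-producing array 2 or 3 (0.25 to 0.28, limma adjusted p 0.0545 to 0.0672). It was also lost with the mean of its probes (0.15, limma adjusted p = 0.146) and with arrays scaled to a common median of all probes (0.03, 0.885).

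Other ER folding enzymes went both ways, with 9 higher and 5 lower of 24 tested (median 0.11). Fkbp11, an ER prolyl isomerase that secretory cells express, had 8.16, 8.26 and 8.12 on the producing arrays and 9.36, 9.25 and 9.47 on the non-producing arrays. All producing arrays were lower, and the difference was -1.18, or 2.27-fold lower (limma adjusted p = 4.36e-05). Sdf4, a calcium-binding protein of the secretory route (0.99, on chromosome 4), and Fkbp2, another ER prolyl isomerase (0.85, on chromosome 19), rose (limma adjusted p = 5.75e-05 and 0.00436). A second probe of Fkbp2, at 0.58, did not pass (limma adjusted p = 0.059). Other degradation genes had 6 higher and 3 lower of 16 (median 0.07). The ligase gene Rnf5, on chromosome 17, rose by 0.74, while Rnf139, also a ligase gene (-0.68), and Nploc4, a cofactor of the segregase p97 (-0.59), fell (limma adjusted p = 0.000205, 0.00756 and 0.000752). The Rnf139 probe was dim, detected on 2 of the 3 producing arrays, with a raw signal of 75.7 to 91.4 there.

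Other sensors and regulators had 5 higher and 2 lower of 13 (median 0.16). Bak1, a death effector that also acts at the ER, was at 0.66 (limma adjusted p = 0.0172), which did not pass when non-producing array 1 or 3 was left out (limma adjusted p 0.0543 and 0.0603), with no filter (0.0591) or with the median of its chromosome 17 removed (0.35, 0.148). Mbtps2, the protease that releases Atf6 from the membrane, fell by 0.58 (limma adjusted p = 0.00758). The probes of Bak1 and Mbtps2 were dim, though detected on all 6 arrays. Raw signals of Bak1 were 102 to 123.7 on the producing arrays and 90.6 to 107.7 on the non-producing arrays. Those of Mbtps2 were 91.9 to 102 on the producing arrays and 131.9 to 152.5 on the non-producing arrays. Traf2, which links IRE1 to kinase signalling, was at 0.52 (limma adjusted p = 0.0223), lost without producing array 2 or non-producing array 1 or 2 (limma adjusted p 0.0521 to 0.0773), with no filter (0.0665) or with arrays scaled to a common median of all probes (0.39, 0.0527). The Traf2 probe was dim, detected on 2 of the 3 non-producing arrays, with a raw signal of 77.7 to 86.5 there. The translocon and signal peptide machinery, which brings proteins into the ER, had 5 higher and 4 lower of 30 (median 0.06). Ddost, a subunit of the oligosaccharyltransferase (0.55), and Srp54a, of the signal recognition particle (0.54), rose, and Ssr3, of the translocon-associated complex, fell by 0.67 (limma adjusted p = 0.000905, 0.00274 and 0.000436). Ddost lies on chromosome 4, and neither Ddost (0.26) nor Srp54a (0.25) passed with arrays scaled to a common median of all probes.

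**Figure D3:**
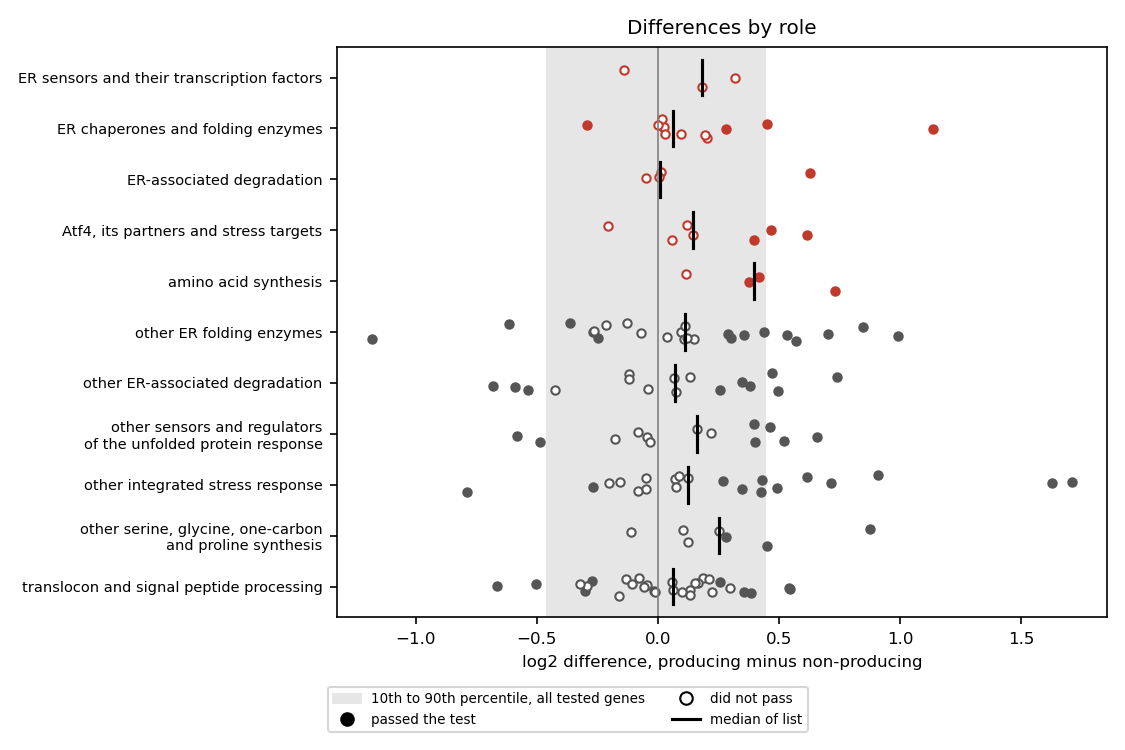
Log2 difference, producing minus non-producing, of each tested gene by role, with members in red and other genes of the pathways in grey; filled points passed the test, black bars are list medians and the shaded band runs from the 10th to the 90th percentile of all tested genes (-0.46 to 0.44). Amino acid synthesis has the highest median, 0.40, and Jdp2 and Stc2 stand furthest to the right.

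How arrays are brought to a common scale set the sign of the smaller differences. When arrays were scaled to a common median of all probes, most of which are at background, the median of all tested genes moved to -0.23, and 12.5% of calls were higher, against 49.4% with quantile normalization. On that scale the median of the 30 members was -0.12 and that of the ER genes -0.18, which is 0.11 and 0.05 above all genes, and the Atf4 programme, at 0.12, was 0.35 above them. Sdf2l1, Syvn1, Ddit4 and Shmt2 still rose there and Hsp90b1 was lower by more (-0.52), while Trib3, Pdia6, Psat1, Asns, P4hb and Sesn2, at 0.18, 0.18, 0.18, 0.15, 0.05 and 0.12, did not pass. The fit called 7 members, 4 of them higher, and 40.3% of all tested genes, 5.03% as higher and 35.2% as lower. Eif2ak3 and Ppp1r15a, at -0.43 and -0.45, were then called lower (limma adjusted p = 0.0321 and 0.0299).

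**Figure D4:**
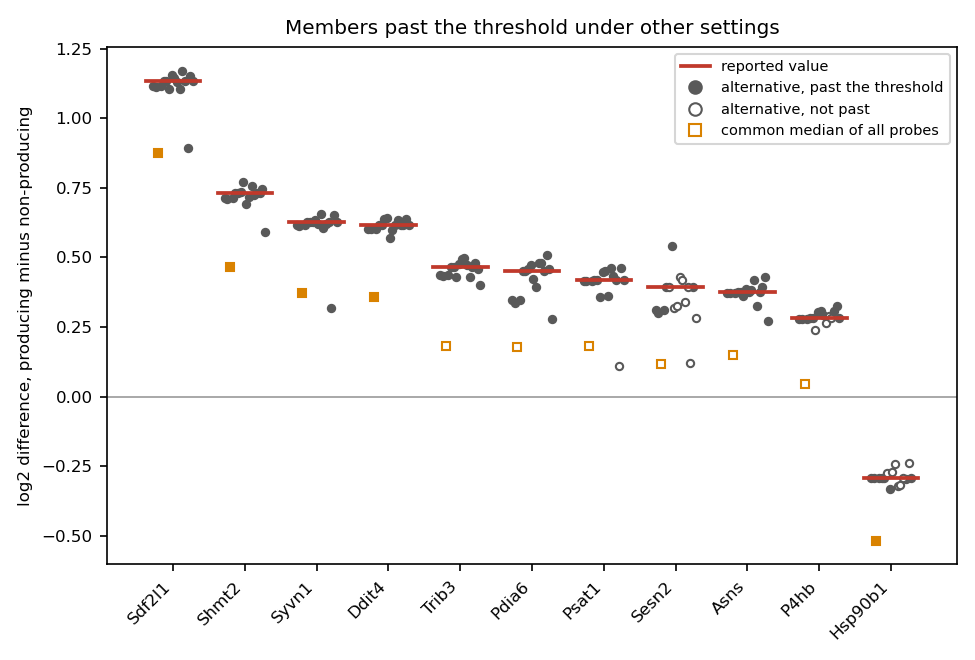
Log2 difference, producing minus non-producing, of the 11 members that passed the test, with the reported value as a red bar and each alternative as a point, filled where it passed; squares mark scaling to a common median of all probes. Sdf2l1, Shmt2, Syvn1 and Ddit4 have filled points throughout, while Sesn2, P4hb and Hsp90b1 have several open ones.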

How the data were processed

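Total RNA of 3 samples of each hybridoma was labelled with biotin and hybridised to Illumina mouse bead arrays. The deposited intensity values are average bead signals on a linear scale, called non-normalized per the file headers. The deposited detection score per probe was read as 1 minus a detection p, since it rises with signal. Scanner software and upstream steps are not given in the labels or headers used here. A second deposited table of intensity values was quantile normalized on a linear scale, as found from its values, and served as an alternative.

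Background was corrected with limma 3.58.1 (R 4.3.3), with negative controls inferred from detection p and an offset of 16, followed by quantile normalization and log2. Probes with detection p under 0.05 on at least 3 of 6 arrays were tested (17445 of 45281) with lmFit and eBayes, two-sided, with Benjamini-Hochberg adjustment over all of them. Where several probes of a gene were tested, that of highest mean level stands for it. Symbols came from the platform annotation, updated through gene IDs. Of all probes, 34885 had 1 symbol, 18 had several and 10378 were not listed, and only the first kind was named. The fit was checked on simulated data. An exact permutation test of 3 against 3 cannot go below p = 0.1. The members and lists were chosen with earlier results of these data known. All members are accounted for by name, together with up to 3 called genes of the largest absolute difference from each other list. The 16 alternatives covered background, scaling, filter, probes, chromosomes, a replicate block and each array left out.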

Additional observations from a re-analysis of the deposited data

How the results depend on the processing

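With arrays scaled to a common median of all probes, 7 members were called, 4 of them higher, where 40.3% of all tested genes were called and 5.03% were higher. The Atf4 programme had 3 of these calls, 2 higher (Ddit4 and Shmt2) and 1 lower (Ppp1r15a). The median difference was then -0.12 over the members, -0.18 over the ER genes and 0.12 over the Atf4 programme. With arrays scaled to a common median of detected probes, an alternative chosen after seeing the data, the members' median was 0.16 and that of the ER genes 0.095. With chromosome medians removed, the ER median was 0.11 and the Atf4 programme's 0.21. The Atf4 programme's median was 0.31 without background correction, 0.30 with a normexp offset of 50, 0.31 with the authors' processed values, 0.26 with no filter and 0.27 with the mean of a gene's probes. Leaving out each array in turn gave 2645 to 2979 called genes, 8 to 10 called members, 3 to 5 called ER genes, and 5 to 6 called genes of the Atf4 programme. The median was then 0.12 to 0.18 over the members, 0.042 to 0.094 over the ER genes and 0.32 to 0.42 over the Atf4 programme. The cause of these shifts was not tested. Deviations of same-numbered arrays from their group means had correlations of -0.04, -0.16 and 0.09, and those of differently numbered arrays ran from -0.20 to 0.26. With deviations centred within groups of 3, these values cannot tell whether the numbers pair the arrays. A replicate block gave 3019 called genes, 8 called members and 3 called ER genes, and among the genes named it ended the calls of P4hb, Hsp90b1, Sesn2 and Mthfd2 (limma adjusted p = 0.051, 0.0601, 0.0655 and 0.0513). The precision is limited by the number of arrays and, for dim probes, by signal close to background.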
